A study of Homo sapiens with 21 samples.

Results

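The comparison set HEY cells harvested 144 h after transfection against cells harvested 24 h after the same transfection. Both had been given a miRNA that was taken as the negative control. HEY is a human ovarian cancer cell line. The members were chosen by their labels: the arrays of cells transfected with "synthetic mirna" at 144 h (n = 3) and at 24 h (n = 3). They are 6 of the 21 arrays of the series. The sample labels do not call this miRNA a control, and their "nc" prefix also stands on the mir-429 labels. This arm was taken as the negative control of the series design. Every transfected cell had received a lipid reagent together with its miRNA, so the reagent is common to both times. The series also holds untransfected cells at 0 h, cells given mir-429 at 24 and 144 h (3 arrays in each group), and both arms at 48 h. The 48 h arrays were left out of the main comparison because their 3' minus 5' signal, a measure of lost 5' RNA, was 7.23 to 8.73. No untransfected cells at 24 or 144 h were analysed here, so the effects of transfection and of time in culture cannot be told apart. Values are log2 RMA expression levels from microarrays that label RNA from its 3' end, and a difference of 1 is 2-fold.

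A lipid reagent carries short RNA into cells in complexes that are taken up and partly degraded in endosomes and lysosomes, and this procedure is known to trigger stress programmes of its own. NRF2 is the transcription factor that raises genes of antioxidant defence, glutathione synthesis and haem breakdown, ATF4 raises genes of amino acid supply, and NF-kB raises cytokines and chemokines. SREBP2 drives sterol synthesis when membrane cholesterol is low, and the DREAM and MuvB complexes time the genes of mitosis. These programmes rise and fall over hours to days, so mRNA levels of lists of genes were compared between an early and a late harvest. The cells compared had been given the negative control alone, and the activity of these factors was not measured.

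No difference in array quality was called between the times, but 3 arrays against 3 cannot show likeness. The 3' minus 5' signal, averaged over the GAPDH and ACTB control transcripts, was 4.21 ± 0.21 (SD, n = 3) at 24 h and 3.90 ± 0.48 at 144 h (two-sided exact permutation p = 0.5; the smallest p that 3 against 3 allows is 0.1). The spread at 24 h was wider for each transcript alone (SD 0.537 for GAPDH and 0.571 for ACTB). Replicate 2 at 24 h had a GAPDH signal of 2.17, against 1.11 and 1.46 on replicates 1 and 3. The arrays of control cells at 24 h were the least alike of the 5 groups fitted, with a median within-group SD of 0.18 against 0.11 at 144 h. Replicate 2 of the 24 h arrays stood apart. The SD of its difference from replicates 1 and 3 was 0.39 and 0.44, and replicates 1 and 3 differed from each other by 0.24. Of the genes chosen to describe this line, PAX8, WT1, KRT8, KRT18, VIM, CD44 and AXL lay above the array median on all 15 arrays fitted. MSLN lay above it on 13 arrays, KRT19 on 2, and EPCAM, CDH1 and MUC16 on 0. VIM, CD44 and AXL are also on the list of mesenchymal genes. Of the leukocyte markers, PTPRC, CD3E and most others lay above it on 0 arrays, but LCP1 did so on 15, CORO1A on 10 and CD8A on 8. The labels name the replicates as biological without saying how their cultures were kept apart, so part of the spread between arrays may be technical. The p-values of the gene changes rest on a spread pooled over the 15 arrays of the 5 groups, of which control cells at 24 h varied most.

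Of 12644 genes tested, 3841 differed between 144 and 24 h (30.4%; limma, Benjamini-Hochberg adjusted p below 0.05). Of these, 2001 were higher at 144 h (15.8%) and 1840 were lower (14.6%). The median size of the called changes was 0.53 on the log2 scale, and the median over all genes was -0.01. At least a 2-fold change was called for 219 genes upwards and 109 downwards. The count of calls was 4875 without replicate 2 of the 24 h arrays (2787 higher and 2088 lower, with 371 at least 2-fold higher), and it lay between 2763 and 3212 when any other array of the comparison was left out. Most genes thus shifted by less than 2-fold, and a smaller number moved much further.

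**Figure D1:**
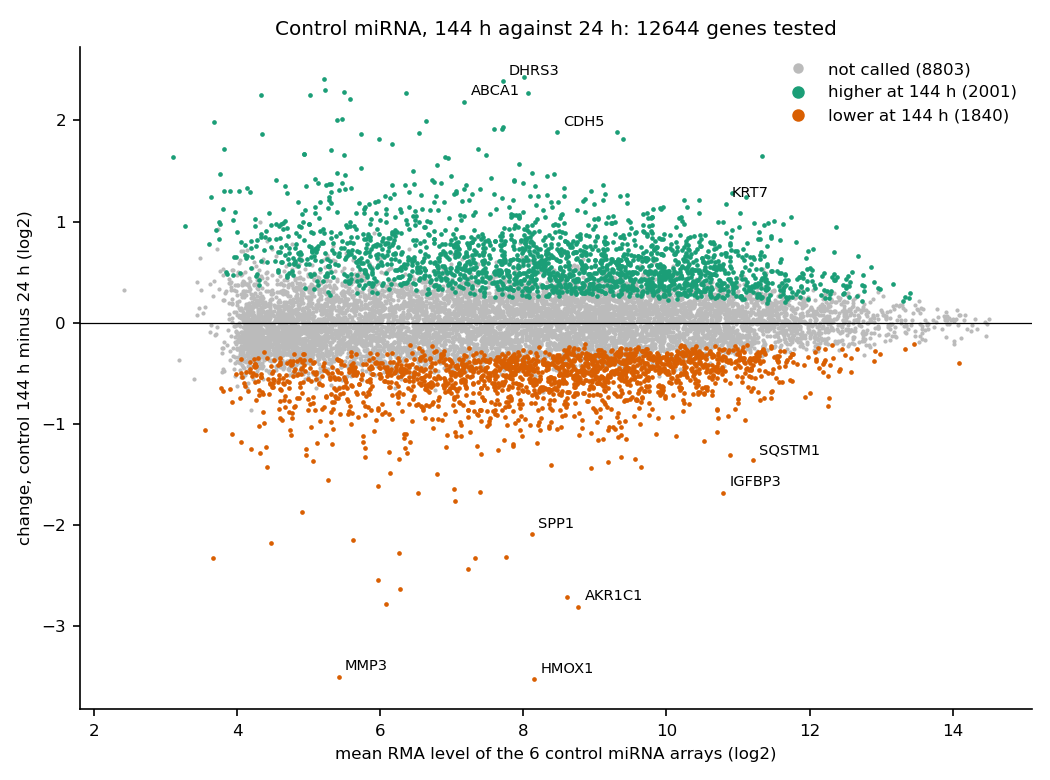
Change between 144 and 24 h in control cells (vertical axis, log2) against the mean level of the 6 arrays (horizontal axis, log2), 1 point per gene tested. Green points (2001) were called higher at 144 h, orange points (1840) lower and grey points were not called. The longest falls are those of HMOX1 and of MMP3, which is drawn at its measured value and given in the text as a bound.

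HMOX1, which encodes the haem-degrading enzyme haem oxygenase 1, fell 11.5-fold. Of the 36 tested genes on the list of oxidative stress and metallothionein genes, 22 fell and 2 rose, against 14.6% and 15.8% of all genes tested. The median change of the list was -0.45, and the median of all genes was -0.01. Without replicate 2 of the 24 h arrays, 22 members were called lower and 0 higher. The 2 that rose, named after their values were seen, were the glutathione peroxidase GPX3 (0.75 ± 0.24, with overlapping arrays) and the small MAF protein MAFF (0.23 ± 0.08). GCLC, the catalytic subunit of glutathione synthesis, and the thioredoxin gene TXN had changes of -0.19 and -0.16 with no call. The other bright probe set of GCLC gave -0.676.

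HMOX1 levels were 9.64, 9.89 and 10.19 on the arrays at 24 h and 6.36, 6.46 and 6.35 at 144 h. Each array at 24 h was far above each at 144 h, and the 144 h values lay close together. The gene fell by 3.52 ± 0.16 (SE; adjusted p = 1.26e-08), and its levels in untransfected cells were 6.42, 6.26 and 5.96. AKR1C1, an aldo-keto reductase of steroids and reactive carbonyls, read 10.08, 10.07 and 10.35 at 24 h and 7.41, 7.23 and 7.45 at 144 h. The groups were again clear of each other, and AKR1C1 fell by 2.80 ± 0.20 (adjusted p = 7.1e-07). AKR1C2 fell by 2.71 ± 0.23 (adjusted p = 2.69e-06). AKR1C1 and AKR1C2 are nearly identical in sequence, so their probe sets may not separate them, and the other bright probe sets of AKR1C1 gave changes from -3.34 to -0.35.

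Other members of the list and genes beside it fell as well. SLC7A11, the cystine and glutamate exchanger that feeds glutathione synthesis, read 10.28, 10.58 and 10.23 at 24 h and 8.83, 9.05 and 8.93 at 144 h. All 144 h arrays were also below the untransfected arrays, which read 9.39, 9.39 and 9.37. For SLC7A11 this difference was -0.45 with no call in the limma fit (adjusted p = 0.0651). From 24 to 144 h it fell by 1.43 ± 0.11 (adjusted p = 8.55e-07). SRXN1, or sulfiredoxin, which restores oxidised peroxiredoxins, fell by 1.37 ± 0.10 (adjusted p = 6.2e-07). OSGIN1, an inhibitor of growth induced by oxidative stress, fell by 2.27 ± 0.15, and PIR, the iron-binding nuclear protein pirin, fell by 1.68 ± 0.12. TRIM16, a member of the tripartite motif family, fell by 2.44 ± 0.21, and the pseudogene NMRAL2P fell by 2.64 ± 0.19. The autophagy receptor SQSTM1 fell by 1.36 ± 0.13 on its brightest probe set, but its probe sets disagree in sign.

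NRF2 binds the antioxidant response element, whose core reads TGACNNNGC. Both strands of the 250 bases before the RefSeq start (GRCh38.p14) were searched for these letters. They occurred for 5 of the 18 falling members that had a promoter in the table (27.8%). The share was 33.3% of the 27 tested members of the list with a promoter, 12.2% of the 10273 genes tested with one, and 11% of all 27305 promoters. Falling members thus did not hold the letters more often than the list as a whole. The 120 bases before the start of GCLM are shown because they hold the element near the start. GCLM encodes the modifier subunit of the first enzyme of glutathione synthesis, was picked for display after the search, and fell by 1.16 ± 0.14 (adjusted p = 3.75e-05). The sequence lies at chr1:93909431-93909550 on the minus strand, with the element, read from the other strand, in capitals.
GCLM: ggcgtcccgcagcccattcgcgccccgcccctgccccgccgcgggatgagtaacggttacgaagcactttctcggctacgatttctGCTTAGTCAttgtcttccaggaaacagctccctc
A match of these letters describes the sequence and was not tested for binding.

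**Figure D2:**
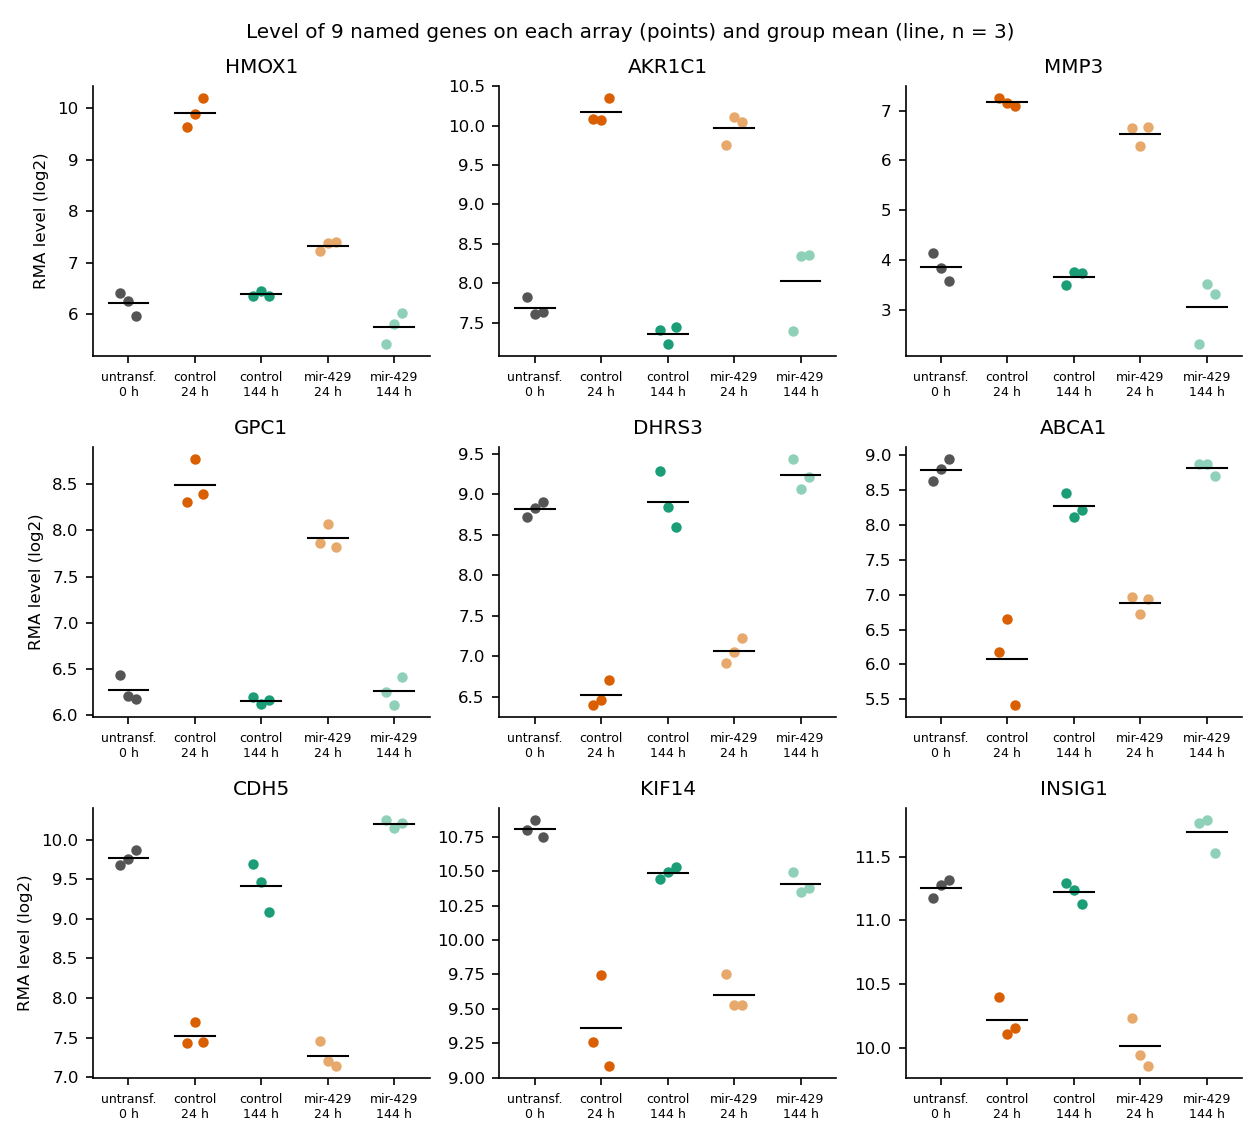
RMA level (vertical axis, log2) of 9 genes on each array (points) with the group mean (line, n = 3) in untransfected cells and in control and mir-429 cells at 24 and 144 h; each panel has its own vertical range. HMOX1, AKR1C1, MMP3 and GPC1 are higher in control cells at 24 h than in untransfected cells or control cells at 144 h, and DHRS3, ABCA1, CDH5, KIF14 and INSIG1 are low there.

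Several genes of secreted proteins had large falls. MMP3, the matrix protease stromelysin 1, read 7.25, 7.15 and 7.09 at 24 h and 3.50, 3.75 and 3.75 at 144 h. The 144 h arrays lay below their array medians, so the fall is given as a bound of at least 7.61-fold (adjusted p = 4.91e-07). MMP1, the interstitial collagenase, read 8.89, 8.89 and 8.94 at 24 h and 6.70, 6.70 and 6.39 at 144 h. The groups were well apart, and MMP1 fell by 2.31 ± 0.11 (adjusted p = 1.38e-08), while untransfected cells lay between them at 7.42, 7.17 and 7.21. SPP1, which encodes the secreted phosphoprotein osteopontin, fell by 2.09 ± 0.13 (adjusted p = 1.49e-07).

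Of 29 tested genes on the inflammatory NF-kB list, 13 fell and 7 rose (median -0.26), against 14.6% and 15.8% of all genes tested. The same shares of all genes are the background for the counts of each list below. The members of the NF-kB list that moved went both ways. CXCL1 and CXCL2, which encode chemokines for neutrophils, fell by 1.11 ± 0.12 and 1.15 ± 0.11. CXCL2 read 10.07, 10.16 and 9.80 at 24 h and 8.69, 8.90 and 9.0 at 144 h, with no overlap. PTX3, a soluble pattern recognition protein, fell by 1.05 ± 0.10, and NFKBIE, an inhibitor that holds NF-kB in the cytoplasm, by 1.26 ± 0.13. TNIP3, a binding partner of the NF-kB inhibitor A20 that is on none of the lists, fell by 2.54 ± 0.21 (adjusted p = 2.49e-06). IL1B went the other way. It read 7.29, 7.53 and 7.46 at 24 h and 8.56, 8.56 and 8.25 at 144 h, a rise of 1.03 ± 0.11 (adjusted p = 2.05e-05). BCL2A1, a survival gene of the BCL2 family, fell by 0.52 ± 0.17 (adjusted p = 0.0352), a call that several alternatives lost. The median of the list ranged from -0.37 to -0.06 over the alternative settings.

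Of 51 tested genes of amino acid supply and protein folding in the endoplasmic reticulum, 21 fell and 1 rose (median -0.28), and 24 fell and 5 rose without replicate 2 of the 24 h arrays. SESN2, a stress-induced inhibitor of mTORC1, read 9.53, 9.74 and 9.69 at 24 h and 8.21, 8.17 and 8.28 at 144 h. The 24 h values were all higher, and the gene fell by 1.44 ± 0.14 (adjusted p = 1.3e-05). ATF3, a stress-induced transcription factor, fell by 0.82 ± 0.13 (adjusted p = 0.00033). HERPUD1, a component of the pathway that degrades misfolded proteins of the endoplasmic reticulum, fell by 0.70 ± 0.09. DDIT4, an inhibitor of mTORC1, read 9.66, 9.83 and 9.79 at 24 h and 8.89, 8.78 and 8.52 at 144 h. Its 144 h arrays were also below the untransfected arrays (9.47, 9.52 and 9.36), a difference of -0.72 with no call (adjusted p = 0.0587). From 24 h DDIT4 fell by 1.03 ± 0.17 (adjusted p = 0.000464).

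Falls also outnumbered rises on the lists of ribosome biogenesis, cytosolic chaperones and the lysosome, among others. Of 52 tested genes of ribosome biogenesis and MYC targets, 19 fell and 1 rose (median -0.22), and the falls ranged from 9 to 25 over the alternatives. RRP12, which acts in the export of ribosomal subunits, fell by 0.72 ± 0.14, but the mean of its probe sets gave -0.14 with no call. RPF2 and MRTO4, assembly factors of the large subunit, fell by 0.54 ± 0.08 and 0.54 ± 0.11. The 52 tested genes for cytosolic ribosomal proteins themselves had a median of -0.003, with 2 called lower and 0 higher. Of 27 chaperone genes, 8 fell and 1 rose (median -0.18), among them the co-chaperones DNAJB4 (-0.61), DNAJA1 (-0.50) and DNAJB6 (-0.44). Of 54 genes of lysosome and autophagy, 12 fell and 3 rose (median -0.12). NEU1, the lysosomal sialidase, fell by 0.98 ± 0.12 and TPP1, a lysosomal peptidase, by 0.64 ± 0.09.

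Of 82 tested genes of mitosis, 49 rose and 2 fell (median 0.36), against 15.8% and 14.6% of all genes. Without replicate 2 of the 24 h arrays 50 rose and 3 fell, and the median lay between 0.33 and 0.39 in every alternative. KIF14, a kinesin of cytokinesis, read 9.26, 9.75 and 9.08 at 24 h and 10.44, 10.49 and 10.53 at 144 h. The groups did not overlap, with replicate 2 the nearest of the 24 h arrays, and the rise was 1.13 ± 0.13 (adjusted p = 4.68e-05). BUB1B, a kinase of the spindle checkpoint, read 9.0, 9.23 and 8.86 at 24 h and 10.07, 10.01 and 9.83 at 144 h. All 144 h arrays were higher, by 0.94 ± 0.11 on average (adjusted p = 3.39e-05). ASPM, a protein of the spindle poles, rose by 0.90 ± 0.10 (adjusted p = 3.66e-05).

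Many genes of mitosis carry a CHR element (cell cycle genes homology region, TTTGAA) close to their start, to which the DREAM and MuvB complexes bind. The letters were searched on both strands of the 250 bases before the start. They occurred for 18 of the 44 rising mitosis genes with a promoter in the table (40.9%), for 30 of 68 tested members of the list (44.1%), for 8.47% of all genes tested and for 13.6% of all promoters. The share among rising members was thus no higher than in the list as a whole. The letters CCAAT, the box bound by NF-Y, occurred for 30 of the 44 (68.2%), for 48 of the 68 tested members (70.6%) and for 34.8% of all genes tested. The 120 bases before the start (GRCh38.p14) of BUB1B and of PLK1 and KIF11, which were picked after the search, are shown with the CHR letters of either strand in capitals. PLK1, the polo-like kinase, rose by 0.60 ± 0.19 (adjusted p = 0.025) and KIF11, the motor that separates spindle poles, by 0.74 ± 0.09 (adjusted p = 8.05e-05). The sequences lie on the plus strand at chr15:40160949-40161068 for BUB1B, chr16:23678769-23678888 for PLK1 and chr10:92593010-92593129 for KIF11.
BUB1B: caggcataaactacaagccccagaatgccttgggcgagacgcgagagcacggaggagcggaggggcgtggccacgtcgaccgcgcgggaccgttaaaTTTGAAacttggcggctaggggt
PLK1: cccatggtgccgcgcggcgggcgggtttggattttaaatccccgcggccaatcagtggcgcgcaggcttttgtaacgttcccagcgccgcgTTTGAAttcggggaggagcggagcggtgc
KIF11: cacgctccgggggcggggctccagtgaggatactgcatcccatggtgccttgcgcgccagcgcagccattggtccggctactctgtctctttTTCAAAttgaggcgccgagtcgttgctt
The element begins 23 bases before the start of BUB1B, 29 before that of PLK1 and 28 before that of KIF11.

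Of 60 tested genes of DNA replication, 13 rose and 4 fell (median 0.16), and the rises ranged from 4 to 29 over the alternatives. ORC1, the origin recognition subunit, fell by 0.82 ± 0.17 (adjusted p = 0.00259) and CCNE1, the cyclin of entry into S phase, by 0.53 ± 0.10 (adjusted p = 0.00133). SLBP, which binds the stem-loop of histone mRNAs, rose by 0.37 ± 0.08 (adjusted p = 0.00335). The named members of this list thus went both ways.

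**Figure D3:**
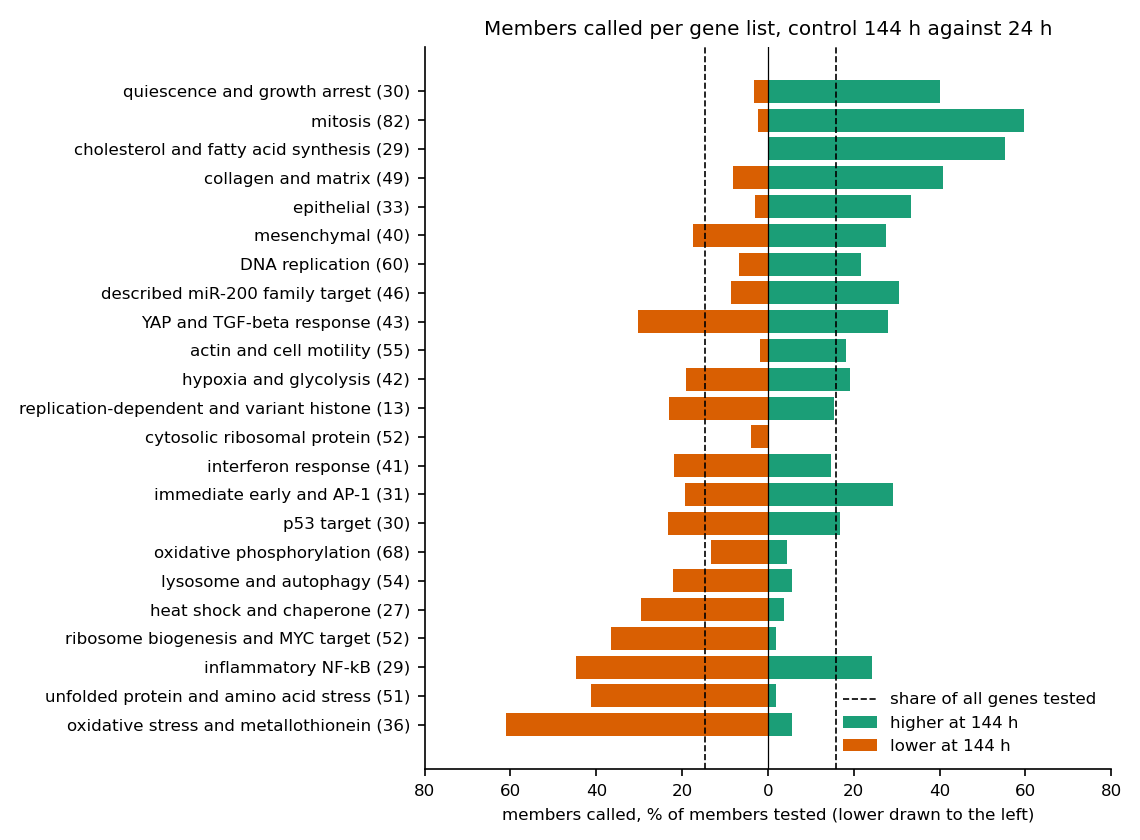
Share of the tested members of each gene list (rows, number tested in brackets) called higher (green, to the right) and lower (orange, to the left) at 144 h against 24 h in control cells, in percent. Dashed lines mark the shares of all genes tested, 15.8% higher and 14.6% lower; mitosis and cholesterol synthesis lie far to the right and oxidative stress far to the left.

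Of 29 tested genes of cholesterol and fatty acid synthesis, 16 rose and 0 fell in the limma fit (median 0.33), and 0 fell in each of the 17 alternative settings, which gave from 9 to 18 rises. INSIG1, the sterol sensor that retains the SREBP complex in the endoplasmic reticulum and is itself an SREBP target, read 10.40, 10.11 and 10.15 at 24 h and 11.30, 11.24 and 11.13 at 144 h. The 144 h arrays were all higher, and they matched the untransfected arrays (11.18, 11.28 and 11.31) to within the spread of both groups. The rise was 1.00 ± 0.12 (adjusted p = 3.75e-05). STARD4, a carrier of cholesterol between membranes, rose by 1.35 ± 0.15 (adjusted p = 3.3e-05), and SQLE, or squalene epoxidase, by 0.73 ± 0.09 (adjusted p = 6.78e-05). ABCA1, the exporter of cholesterol to lipoproteins, read 6.17, 6.65 and 5.42 at 24 h and 8.46, 8.12 and 8.21 at 144 h. Its 24 h arrays were widely spread but all lower, and the rise was 2.19 ± 0.22 (adjusted p = 1.34e-05). ABCA1 is regulated by the liver X receptors, which respond to sterol excess, and it is on none of the lists.

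Of 30 tested genes of quiescence and growth arrest, 12 rose and 1 fell (median 0.40), but with the mean of all probe sets of a gene 8 rose and the median was 0.09. The FOXO transcription factor genes FOXO3 and FOXO4 had changes of -0.03 and 0.04 with no call. CCNG2, an atypical cyclin and FOXO target, read 8.21, 8.25 and 8.24 at 24 h and 9.40, 9.53 and 9.37 at 144 h. Its arrays were tight at both times, and the rise was 1.20 ± 0.09 (adjusted p = 1.3e-06). FOXO1 itself rose by 1.27 ± 0.17 (adjusted p = 9.2e-05), and YPEL3, a growth suppressor, by 1.42 ± 0.16 (adjusted p = 3.51e-05). TRIB2, a pseudokinase that restrains FOXO, rose by 2.0 ± 0.22 (adjusted p = 2.33e-05).

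**Figure D4:**
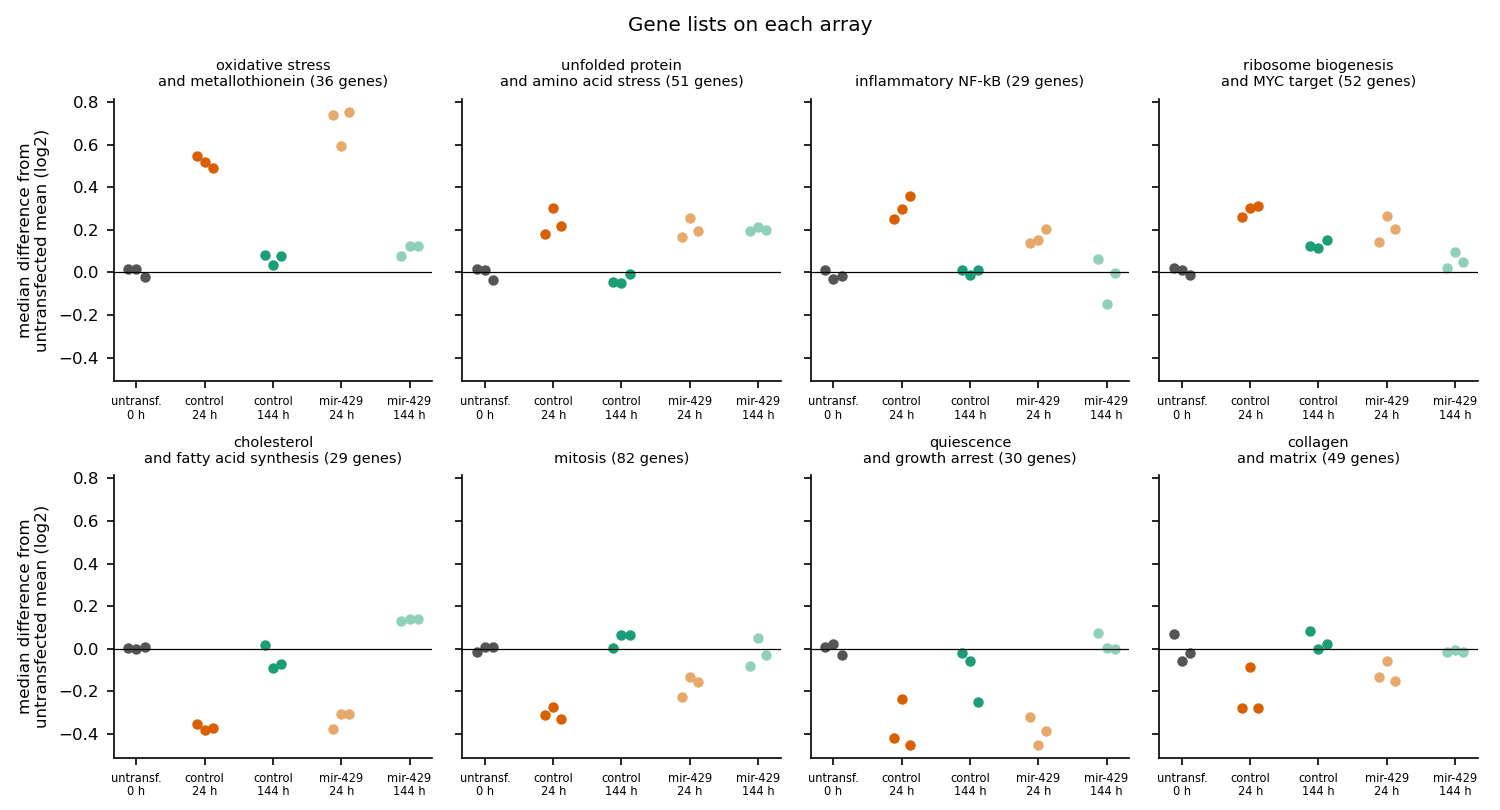
Median difference of a gene list from the mean of the untransfected arrays (vertical axis, log2) on each array (points) for 8 lists, with the number of genes tested in brackets. Control arrays at 24 h lie above 0 for the upper row and below 0 for the lower row, and control arrays at 144 h lie nearer to 0 than those at 24 h, except that replicate 3 at 144 h (-0.25) and replicate 2 at 24 h (-0.24) overlap for quiescence.

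Of 49 tested collagen and matrix genes, 20 rose and 4 fell (median 0.23), though 9 rose with the mean of probe sets. The list median on single arrays, relative to untransfected cells, was -0.28, -0.08 and -0.28 at 24 h and 0.08, 0.00 and 0.02 at 144 h, with replicate 2 the nearest to 0 at 24 h. COL13A1, a transmembrane collagen, read 6.26, 6.24 and 6.28 at 24 h and 7.61, 7.78 and 7.75 at 144 h. The difference was far larger than the spread, at 1.45 ± 0.12 (adjusted p = 1.71e-06). FN1, or fibronectin, rose by 0.54 ± 0.11 (adjusted p = 0.00268), but its probe sets disagree in sign and their mean gave 0.23 with no call. EFEMP1, the matrix protein fibulin-3, rose by 1.92 ± 0.12 (adjusted p = 1.49e-07).

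Of 33 tested epithelial genes, 11 rose and 1 fell (median 0.21), with 15 and 0 in the absence of replicate 2 at 24 h. KRT80, a keratin, read 6.84, 6.85 and 7.12 at 24 h and 9.25, 9.22 and 9.14 at 144 h. The groups were far apart, and the rise was 2.27 ± 0.12 (adjusted p = 4.64e-08). KRT7, a keratin of simple epithelia, rose by 1.18 ± 0.15 (adjusted p = 7.03e-05). TJP1, the tight junction scaffold ZO-1, rose by 0.90 ± 0.09 on its brightest probe set, with disagreement in sign between probe sets. CDH1 and EPCAM, which define epithelial cells, were not tested because they were dim in all groups: the means at 24 and 144 h were 3.13 and 2.90 for CDH1 and 2.16 and 2.27 for EPCAM, below the array medians.

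Of 40 tested mesenchymal genes, 11 rose and 7 fell (median 0.18). ZEB2, a repressor of epithelial genes, rose by 1.13 ± 0.19 (adjusted p = 0.000704), and its relative ZEB1 changed by 0.26 ± 0.15 with no call (adjusted p = 0.204); probe sets of both genes disagree in sign. VIM, or vimentin, changed by -0.04 ± 0.10 on its brightest probe set (adjusted p = 0.782). Its other bright probe set gave 0.825, and the mean of its probe sets was called higher (0.39, adjusted p = 0.00542). FSTL1, a secreted glycoprotein, rose by 0.85 ± 0.11 on its brightest probe set, where others disagree in sign, and ITGA5, the fibronectin receptor subunit, fell by 0.71 ± 0.09. Of 55 tested genes of actin and cell motility, 10 rose and 1 fell (median 0.07), against 15.8% and 14.6% of all genes tested, and 18 and 4 did so without replicate 2 at 24 h. The named members were RDX, which links actin to the membrane (1.28 ± 0.16), WASF3, which activates branched actin growth (1.21 ± 0.16), and MARCKS, an actin-binding substrate of protein kinase C (0.99 ± 0.13). RDX read 10.43, 10.55 and 9.84 at 24 h and 11.56, 11.55 and 11.55 at 144 h, with a wider spread at 24 h and no overlap.

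Genes of the YAP and TGF-beta response split evenly. Of 43 tested, 12 rose and 13 fell (median 0.11). The named members were all falls. BAMBI, a decoy receptor that damps TGF-beta signals, read 8.28, 8.22 and 8.20 at 24 h and 6.25, 6.63 and 6.79 at 144 h, and it fell by 1.68 ± 0.12 (adjusted p = 8.5e-07). IGFBP3, which binds insulin-like growth factors, fell by 1.68 ± 0.21, with 144 h arrays spread from 9.41 to 10.54. ACTA2, smooth muscle actin, fell by 0.99 ± 0.10.

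Most of the genes with the largest rises are on none of the lists. P2RY6, a receptor for UDP, read 6.90, 6.61 and 6.88 at 24 h and 9.15, 9.18 and 9.35 at 144 h. The groups were clear of each other, and the rise was 2.43 ± 0.11, or 5.38-fold (adjusted p = 1.26e-08). DHRS3, which reduces retinaldehyde to retinol and is induced by retinoic acid, read 6.40, 6.46 and 6.70 at 24 h and 9.28, 8.84 and 8.59 at 144 h. It rose by 2.38 ± 0.16 (adjusted p = 2.92e-07). PELI2, a ubiquitin ligase of Toll-like receptor signalling, rose by 2.27 ± 0.26 from widely spread 24 h arrays (5.30, 5.85 and 4.52). C4BPB, the beta chain of the complement C4b-binding protein, read 4.26, 4.95 and 4.18 at 24 h and 6.86, 6.25 and 6.91 at 144 h. The rise was 2.21 ± 0.24 (adjusted p = 2.3e-05). Replicates 1 and 3 at 24 h lay below their array medians of 4.29 and 4.28, so the size of this rise is less certain.

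HSD17B2, which oxidises oestradiol, and INAVA, an adaptor of innate immune signalling, were dim at 24 h, so their rises are bounds of at least 4.45-fold and at least 4.32-fold. TNFSF15, a cytokine of the TNF family, rose by 2.0 ± 0.16 (adjusted p = 1.71e-06). CAVIN2, a coat protein of caveolae, SIRPB1, a receptor of the signal regulatory family, and RALGPS2, an exchange factor for Ral, rose by 2.01, 2.28 and 1.93, and their probe sets disagree in size. FAP, a serine protease of the cell surface and 1 of the 5 fibroblast markers tested, rose by 1.91 ± 0.14 (adjusted p = 8.64e-07). Of the fibroblast markers, COL1A2, COL3A1, LUM and PDGFRA lay above the array median on 0 arrays, while COL1A1, PDGFRB, FAP and PDPN did so on all 15 and THY1 on 11. CDH5, the endothelial VE-cadherin, read 7.43, 7.70 and 7.45 at 24 h and 9.69, 9.46 and 9.09 at 144 h, a rise of 1.88 ± 0.14 (adjusted p = 7.1e-07). Of the 9 endothelial markers tested, CDH5 and ESAM were called higher and 0 lower. The endothelial genes ERG, EMCN, TEK and CD34 lay above the median on 0 arrays, whereas CDH5, TIE1 and ROBO4 did so on all 15, untransfected cells included.

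Among the remaining large falls, GPC1, a heparan sulfate proteoglycan of the cell surface, read 8.31, 8.77 and 8.39 at 24 h and 6.20, 6.12 and 6.17 at 144 h. The groups lay far apart, and the gene fell by 2.33 ± 0.13 (adjusted p = 5.73e-08), with a smaller change of -0.595 on its other bright probe set. AFP, the fetal serum protein, fell by 2.15 ± 0.19, and EPAS1, the hypoxia-inducible factor 2 alpha, by 1.76 ± 0.11 (adjusted p = 2.92e-07). SPANXB1, a testis antigen of a family of near-identical genes on the X chromosome, fell by 2.78 ± 0.27, a value that may mix several copies.

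Several lists had similar numbers of rises and falls. Of 42 tested genes of hypoxia and glycolysis, 8 rose and 8 fell (median 0.06), with BNIP3L, a receptor of mitophagy, up by 0.78 ± 0.10, MXI1, a MYC antagonist, up by 1.05 ± 0.16, and DDIT4, described above, down by 1.03 ± 0.17. Of 41 interferon response genes, 6 rose and 9 fell (median -0.01). DTX3L, a ubiquitin ligase partner of PARP9, rose by 1.17 ± 0.11. TAP1, the peptide transporter of antigen presentation, fell by 0.95 ± 0.11 and SP110, a nuclear body protein, by 0.92 ± 0.13. The 5 bright probe sets of SP110 ranged from -0.916 to 0.043. Of 30 p53 targets, 5 rose and 7 fell (median -0.05). TP53I3, an oxidoreductase, fell by 1.09 ± 0.11 and the death receptor FAS by 0.76 ± 0.09. The 5 bright probe sets of FAS ranged from -0.76 to -0.135. Of 31 immediate early and AP-1 genes, 9 rose and 6 fell (median -0.03). JUND, an AP-1 subunit, rose by 0.64 ± 0.07 and TGFA, an EGFR ligand, by 0.56 ± 0.09, and the mean of probe sets called neither.

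Of 68 nuclear genes of oxidative phosphorylation, 9 fell and 3 rose (median -0.07), against 14.6% and 15.8% of all genes tested. The share that fell was thus no higher than among all genes. Without replicate 2 at 24 h 22 fell, in a setting where 2088 of 12593 genes tested were called lower. The complex I genes NDUFS6, NDUFAB1 and NDUFC1 fell by 0.75 ± 0.11, 0.54 ± 0.11 and 0.55 ± 0.11. Of 13 histone genes, 3 fell and 2 rose. H1-2 fell by 0.59 ± 0.16. H2BC12 fell by 0.45 ± 0.13 with overlapping arrays. Its call was lost without replicate 1 or 3 at 24 h, without replicate 2 at 144 h and with only the arrays compared. H2AZ2 rose by 1.04 ± 0.10 on its brightest probe set, and its 4 bright probe sets ranged from -0.15 to 1.16. The ribosomal protein gene RPL36 fell by 0.38 ± 0.12 and RPL36A by 0.73 ± 0.25, both calls that several alternatives lost, and the RPL36A arrays overlap. Of 46 described targets of the miR-200 family, 14 rose and 4 fell (median 0.12), and 4 rose and 5 fell with the mean of probe sets. Of the 3 leukocyte markers tested, LCP1, an actin-bundling protein, fell by 0.50 ± 0.14, a call lost without replicate 2 or 3 at 144 h and with all 7 groups in the fit, and PDPN, a mucin-like glycoprotein of the fibroblast list, rose by 0.35 ± 0.13 with an adjusted p of 0.0458 that most alternatives lost.

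The 24 and 144 h arrays were also set against untransfected cells at 0 h. These comparisons share arrays with the first, so their values are given side by side only. At 24 h the median size of the difference from untransfected cells was 0.30, and 4.82% of the 12644 genes differed by at least 2-fold (168 higher and 441 lower, counted without a test). At 144 h the median size was 0.14, and 0.166% differed by at least 2-fold (11 higher and 10 lower). In the limma fit 5671 genes differed from untransfected cells at 24 h (44.9%; 22.2% higher and 22.7% lower), and 81 did so at 144 h (0.641%; 0.388% higher and 0.253% lower). The count at 144 h depends strongly on how the spread is estimated: it was 956 in a fit of these 2 groups alone and 3764 with array weights, which gave replicate 2 at 24 h a weight of 0.174. It was 372 without replicate 2 and 218 without replicate 3 of the 24 h arrays, and 52, 25 and 18 without replicates 1, 2 and 3 of the 144 h arrays. The mean 3' minus 5' signal was 2.79 to 3.76 in untransfected cells, 4.0 to 4.43 at 24 h and 3.38 to 4.32 at 144 h, and with it as a covariate 1620 genes differed at 24 h and 7 at 144 h. A count of 81 thus does not show that all other genes were back at the untransfected level.

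The genes called in the first comparison had the following medians. For the 2001 genes higher at 144 h, the median difference from untransfected cells was -0.63 at 24 h and -0.05 at 144 h. For the 1840 genes lower at 144 h, it was 0.55 at 24 h and 0.05 at 144 h. By list, the medians at 24 and 144 h against untransfected cells were 0.48 and 0.07 for oxidative stress, 0.20 and 0.00 for amino acid and folding stress, -0.34 and -0.08 for sterol and fatty acid synthesis, -0.32 and 0.05 for mitosis, and -0.39 and -0.08 for quiescence. Ribosome biogenesis stood at 0.29 and 0.11 and oxidative phosphorylation at 0.20 and 0.16. Of the 36 oxidative stress genes, 27 were called higher than in untransfected cells at 24 h, against 22.2% of all genes. Of the 82 mitosis genes, 44 were called lower at 24 h, against 22.7% of all genes, and 4 higher. At 144 h 0 genes of either list were called, which says little where 0.641% of all genes were.

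Some named genes had not the same level at 144 h as in untransfected cells. EFEMP1 read 7.53, 7.35 and 7.43 before transfection and 8.57, 8.79 and 8.62 at 144 h, and it had read 6.71, 6.84 and 6.69 at 24 h. It was thus lower at 24 h and higher at 144 h than before transfection, and the 144 h difference was 1.22 (adjusted p = 0.000149). C4BPB (1.61, adjusted p = 0.00662), P2RY6 (0.78, adjusted p = 0.00484), INAVA (0.72, adjusted p = 0.00562) and KRT80 (0.72, adjusted p = 0.0125) were likewise above the untransfected level at 144 h. TMEM158, a transmembrane protein induced by RAS signalling, read 10.27, 10.02 and 10.31 before transfection, 9.02, 8.97 and 9.17 at 24 h and 8.88, 8.54 and 7.98 at 144 h. No array of one time overlapped another time. The change from 24 to 144 h was -0.59 (adjusted p = 0.0177) and -0.34 without replicate 3 at 144 h (adjusted p = 0.0648), and the call was also lost without replicate 3 at 24 h (0.0655) and with only the arrays compared (0.0834). The level at 144 h was 1.74 below the start (-1.74, adjusted p = 0.000149). IL1B (-0.89, adjusted p = 0.00175) and MMP1 (-0.67, adjusted p = 0.0108) also lay below the untransfected level at 144 h.

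The same interval was measured in cells given mir-429, with no array in common. hsa-miR-429 belongs to the miR-200 family, which is best known for repressing ZEB1 and ZEB2. Its mature sequence, from RefSeq (GRCh38.p14, chr1:1169055-1169076, plus strand), is shown because the seed, at bases 2 to 8 and in capitals, sets which mRNAs it pairs with.
hsa-miR-429: uAAUACUGucugguaaaaccgu
In that arm 4892 genes differed between 144 and 24 h (38.7%; 15.9% higher and 22.8% lower). Of the 2001 genes higher in control cells, 733 were also called higher in mir-429 cells (36.6% of the control list and 36.5% of the mir-429 list), and 220 were called lower. Of the 1840 lower in control cells, 875 were called lower with mir-429 (47.6% of the control list and 30.3% of the mir-429 list), and 99 were called higher. Across the 12644 genes the changes of the 2 arms had a Pearson correlation of 0.41 and a Spearman correlation of 0.31, as a description over genes that are not independent.

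**Figure D5:**
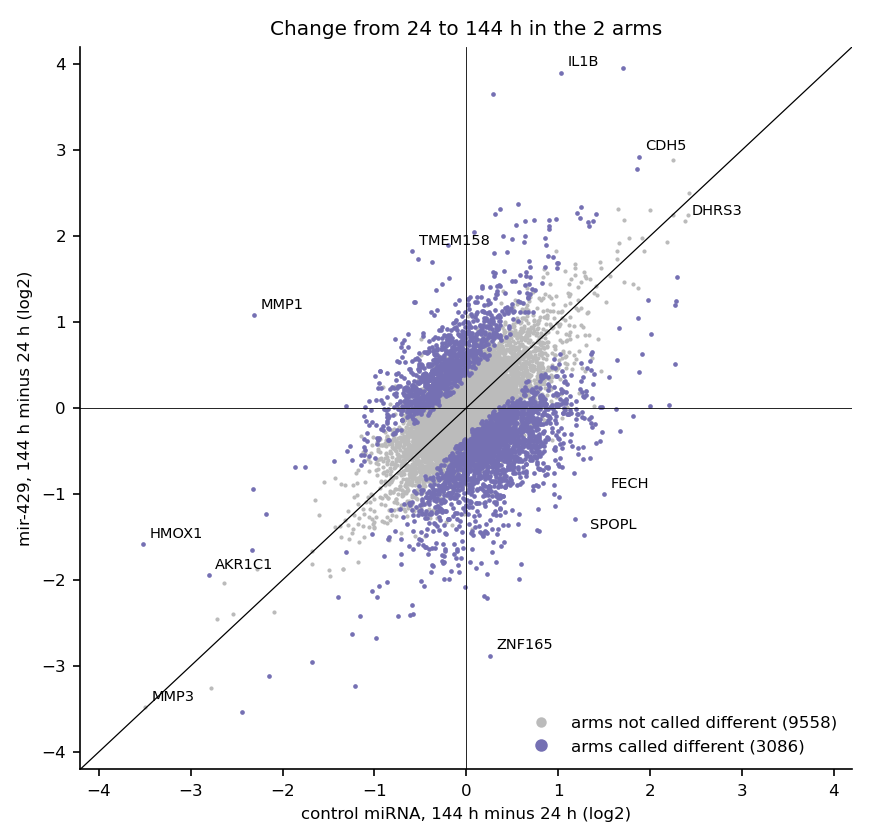
Change between 144 and 24 h with mir-429 (vertical axis, log2) against the same change with the control miRNA (horizontal axis, log2), 1 point per gene tested; the diagonal marks equal change. Purple points (3086) were called different between the arms and grey points were not; DHRS3 lies near the diagonal, and MMP1 and IL1B lie far above it; MMP3 is drawn at its measured values.

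The change itself differed between the arms for 3086 genes (24.4%), where the signed change was higher with mir-429 for 8.95% of all genes and lower for 15.5%. This difference was called for 911 of the 2001 genes higher in control cells (45.5%) and for 546 of the 1840 lower (29.7%). The 3' minus 5' signal was lower on the mir-429 arrays at 24 h (2.54 to 3.25) than on the control arrays. With it as a covariate the arms differed for 1557 genes. The array median of mir-429 replicate 1 at 144 h was 3.95, against 4.22 and 4.21 for replicates 2 and 3. No mir-429 array was left out in turn, so how far the arm difference rests on that array was not tested. DHRS3 rose by 2.18 with mir-429 and FAP by 1.98, close to their rises in control cells, and neither difference was called. With mir-429 SRXN1 changed by -1.38 and BAMBI by -1.67, and neither of those differences was called. An absent call does not show equal change.

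HMOX1 was one of the genes that did differ. With mir-429 it read 7.22, 7.38 and 7.40 at 24 h and 5.42, 5.81 and 6.02 at 144 h, a smaller fall from a lower start than in control cells. The difference between the arms was 1.93 ± 0.23 (adjusted p = 0.000128). EPAS1 also fell less with mir-429 (difference 1.07 ± 0.16, adjusted p = 0.000657). MMP1 went opposite ways, falling in control cells and rising by 1.08 with mir-429 (difference 3.39 ± 0.15, adjusted p = 3.33e-08). IL1B rose in both arms, from 5.93, 5.90 and 5.70 to 9.84, 9.66 and 9.73 with mir-429, and the difference was 2.87 ± 0.15 (adjusted p = 1.29e-07). GPR65, a proton-sensing receptor, rose by 3.65 with mir-429, and it lay below the array medians at both times in control cells, so no difference between the arms is given.

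Rises that were larger in control cells included C4BPB, with 0.03 in mir-429 cells (difference -2.18 ± 0.34, adjusted p = 0.000775), and TRIB2, with 0.02 (difference -1.98 ± 0.31, adjusted p = 0.000774). The size of the C4BPB difference is less certain, because replicates 1 and 3 of the control arrays at 24 h lay below their array medians. DTX3L rose in control cells and fell by 0.75 with mir-429 (difference -1.93 ± 0.16, adjusted p = 1.56e-05). SPOPL, an adaptor of cullin ubiquitin ligases, rose by 1.28 ± 0.19 in control cells and fell by 1.48 with mir-429. FECH, the last enzyme of haem synthesis, rose by 1.5 ± 0.17 and fell by 1.0, and ZNF367, a zinc finger protein, rose by 1.19 ± 0.19 and fell by 1.29. ZNF165 and RBM47 were not called in control cells (0.26 and 0.58), and with mir-429 ZNF165 fell by 2.88. RBM47 was dim with mir-429 at 144 h and fell by at least 1.67. TMEM158 and BCL2A1, called lower in control cells, rose by 1.82 and 1.74 with mir-429. ZEB1 rose by 1.40 with mir-429 against 0.26 in control cells (difference 1.15 ± 0.21, adjusted p = 0.00205), and FN1 by 2.13 against 0.54 (difference 1.59 ± 0.16, adjusted p = 4.4e-05).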

How the data were processed

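The authors deposited 1 log2 level per probe set, computed with RMA per the submitters' processing notes; the sources used here do not give its software. No further scaling was applied. Of 54675 probe sets, 41097 had 1 gene symbol in GEO's platform annotation, 1801 had several and 11777 none. Symbols were updated through Entrez identifiers with RefSeq (GRCh38.p14; 99.9% matched). A gene was represented by its brightest probe set over the 15 arrays fitted, which gave 19775 genes, and it entered the test if that probe set exceeded the array median on 3 or more arrays (12644 genes; 7131 were set aside). limma 3.58.1 in R 4.3.3 (lmFit, eBayes) fitted 1 mean per group for 5 groups (residual degrees of freedom 10, prior degrees of freedom 4.15). The tests are two-sided, with Benjamini-Hochberg adjustment over all genes tested and a threshold of 0.05. Values are log2 changes ± SE with n = 3 per group. If a group mean was under its array medians, that group was raised to the median and the change is given as a bound. Precision is limited by the number of arrays, and depth does not apply.

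Named genes were the 15 largest rises and the 15 largest falls without overlap of arrays, up to 3 members of each of 26 lists with the smallest p, 6 genes of the epithelial and mesenchymal states that were always named, and the 5 largest differences between the arms in each direction. The members and lists were chosen with earlier results of these data known. The test script was tested on simulated data. Alternatives changed the scaling, the filter, the probe set rule, the arrays in the fit, the replicate block, array weights, the covariate and the prior. Each of the 6 control arrays at 24 and 144 h was also left out in turn. No untransfected or mir-429 array was left out.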

Additional observations from a re-analysis of the deposited data

Results flagged for a closer look

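The change from 24 to 144 h differed between the mir-429 and control arms for 3086 genes by the interaction term of the limma fit. Among the genes compared between the arms above, the difference (mir-429 minus control, log2) was positive for MMP1 (3.39), IL1B (2.87), TMEM158 (2.41), BCL2A1 (2.26), HMOX1 (1.93), FN1 (1.59), ZEB1 (1.15) and EPAS1 (1.07). It was negative for ZNF165 (-3.14), SPOPL (-2.75), FECH (-2.50), ZNF367 (-2.48), C4BPB (-2.18), TRIB2 (-1.98) and DTX3L (-1.93), and for RBM47, dim with mir-429 at 144 h, it was -2.25 or lower. Probe sets disagree in sign for FN1, ZEB1 and RBM47, and in size for SPOPL and FECH. For C4BPB, replicates 1 and 3 of the control arrays at 24 h lay below their array medians. The mean 3' minus 5' signal was 4.0 to 4.43 on control arrays at 24 h and 2.54 to 3.25 on mir-429 arrays at 24 h. With it as a covariate 1557 genes differed between the arms. The array median was 3.95 on mir-429 replicate 1 at 144 h, and no mir-429 array was left out in turn.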

How the results depend on the processing

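Of 107 named genes, 91 kept their direction and their side of the threshold in all 17 alternatives. Across the alternatives, the number of genes called between 144 and 24 h kept within 1.5 times of 3841, except that it was 2491 (1251 higher) with only the arrays compared and 7034 (3794 higher, 3240 lower) with array weights. Genes at least 2-fold higher numbered 112 with the mean of probe sets and 168 to 371 when 1 array was left out, the highest without replicate 2 at 24 h. The arms differed for 4812 genes with array weights and for 1557 with the 3' to 5' covariate, with which 1620 genes differed from untransfected cells at 24 h. The count at 144 h against untransfected cells moved most. It was 152 with cyclic loess, 152 with the trended robust prior, 52 without a filter and 53 with the mean of probe sets. It was 3764 with array weights, 7 with the covariate and 18 to 372 with 1 control array left out. No untransfected array was left out. A fit of the 2 groups alone, which was added after seeing the data, gave 956. The causes were not tested. The change of VIM, uncalled in the main fit, turned to 0.39 with the mean of probe sets and was called there (adjusted p = 0.00542). It lay between -0.13 and 0.020 when 1 array was left out (above 0 without 24 h replicate 3 or 144 h replicate 3). H2AZ2 turned to -0.15 with only the arrays compared, where another of its probe sets was the brightest. With the replicate block 3738 genes were called. Same-numbered arrays at 24 and 144 h had correlated deviations of 0.28, 0.08 and -0.07, so the numbers were not taken as pairs. Signal near background limits dim genes to bounds.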
